A study of Homo sapiens with 3 samples.

Results

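MYC and CDCA7, a gene described as a direct target of the MYC protein, were followed in LNCaP cells treated with bufalin. All probes that could be named as either gene were taken, 2 of MYC and 1 of CDCA7. These are 3 of the 47323 probes on the array and 2 of the 8661 genes that could be named. Names were available only for a filtered table, nearly all of whose probes differed from vehicle by 10% or more at either dose. Other probes of these genes may therefore be among the 36371 left unnamed. The genes were chosen with their values in these data known, so those values are a description and carry no test. LNCaP cells are an androgen-responsive line from a human prostate tumour, and bufalin is a toad venom steroid that inhibits Na,K-ATPase, the sodium pump. The cells were treated for 24 h with ethanol as vehicle, with 10 nM bufalin or with 20 nM bufalin, and all 3 groups were LNCaP cells grown in the same serum-containing medium. RNA of each group was hybridised to 1 Illumina bead array, so no difference below has a replicate check. The labels do not say whether the 3 RNAs came from 1 culture experiment. RefSeq places MYC on chromosome 8 at 127735434 to 127742951 and CDCA7 on chromosome 2 at 173354872 to 173368997, both in GRCh38.p14. Where the probes lie within these genes was not analysed here.

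MYC is a basic helix-loop-helix leucine zipper transcription factor that binds E-box DNA as a partner of MAX. It drives genes of ribosome production, nucleotide synthesis and cell cycle entry, and both its messenger RNA and its protein turn over quickly. In prostate cancer MYC is often gained or over-expressed. CDCA7, also called JPO1, encodes a zinc finger protein that brings the chromatin remodeller HELLS to DNA and takes part in keeping DNA methylation. Mutations in CDCA7 cause a form of the immunodeficiency, centromeric instability and facial anomalies (ICF) syndrome. CDCA7 transcript levels follow S phase, and the gene responds to E2F1 as well as to MYC.

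The 250 bases before the annotated CDCA7 start, on the plus strand of GRCh38.p14 at chr2:173354622-173354871, are shown because CDCA7 is described as a target of both MYC and E2F1. The capitals mark the single match, on the minus strand, to the E2F-type letters TTTNNCGC.
CDCA7 promoter: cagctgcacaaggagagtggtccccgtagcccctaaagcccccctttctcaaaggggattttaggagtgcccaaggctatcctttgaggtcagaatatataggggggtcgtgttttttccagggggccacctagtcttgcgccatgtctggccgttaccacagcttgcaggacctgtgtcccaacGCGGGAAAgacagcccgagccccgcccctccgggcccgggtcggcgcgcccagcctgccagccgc

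That match lies 65 to 58 bases before the start. The MYC-type E-box CACGTG did not occur in this window on either strand. The general E-box letters CANNTG occurred at 1 place, the first 6 bases, where the match reads the same on both strands. Of 35116 windows of this length in the RefSeq table, 5.92% held TTTNNCGC, 6.34% held CACGTG and 61.8% held CANNTG, in each case on either strand. The CDCA7 window had a G+C content of 62.8% and 14 CG pairs, against medians of 58% and 11 over all windows. These are matches of letters and not measured binding sites.

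MYC signal was lower at each bufalin dose than in vehicle, and lowest at 20 nM, by both probes. The deposited intensities, on a linear and unnormalized scale, of the brighter MYC probe (ILMN_1680618) were 2524 with vehicle, 1638 at 10 nM and 789.9 at 20 nM. Those of the dimmer probe (ILMN_2110908) were 1446, 863 and 394 in the same order. The signal therefore stepped down with dose, and at 20 nM stood at 31.3% of vehicle by the brighter probe and at 27.2% by the dimmer one. Both probes had a detection p-value of 0 on all 3 arrays, and the brightest MYC reading was 9.86% of the highest signal on its array, well short of the top of the range. In this bulk RNA of LNCaP cells, less MYC RNA in every cell and a loss in some cells only cannot be told apart.

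After background removal, quantile normalization and log2, the brighter MYC probe had a log2 difference from vehicle of -0.68 at 10 nM and -1.83 at 20 nM. These are 1.60-fold and 3.54-fold lower signals. The dimmer probe gave -0.87 and -2.18, or 1.82-fold and 4.54-fold lower. The gap between the probes was 0.19 at 10 nM and 0.36 at 20 nM. It was smaller than the spread between named probes of the same gene. That spread was a pooled standard deviation of 0.29 over 1561 genes at 10 nM and of 0.41 over 1488 genes at 20 nM. Nearly all probes that could be named differed from vehicle by 10% or more at either dose. A MYC probe without such a difference would thus be missing, which limits what this agreement can show. That spread describes probes and not replicate cultures. By the brighter probe MYC was past a 2-fold difference at 20 nM and short of it at 10 nM.

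CDCA7 signal was lower than in vehicle by more than 2-fold at both doses. Its probe (ILMN_1737184) read 791 with vehicle, 335 at 10 nM and 162 at 20 nM, which is 42.3% and 20.4% of the vehicle reading. Its detection p-value was 0 on the vehicle and 10 nM arrays and 0.0013 on the 20 nM array. The probe was thus still detected at 20 nM, but its reading had come near the fitted mean background of that array, 116. The normalized log2 difference from vehicle was -1.61 at 10 nM, or 3.06-fold lower, and -3.44 at 20 nM, or 10.9-fold lower. Because the 20 nM reading is so near background, that last fold rests on the background step: the deposited intensities gave a ratio of 4.89 and a log2 difference of -2.29. With no second named probe, CDCA7 has no agreement between probes to report.

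**Figure D1:**
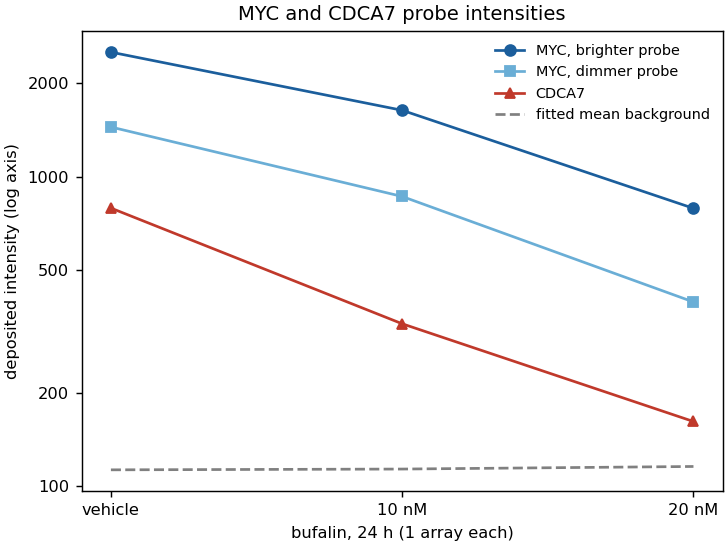
Deposited intensity (log axis) of the brighter and dimmer MYC probes and of the CDCA7 probe on the vehicle, 10 nM and 20 nM arrays, 1 array each, with the fitted mean background as a dashed line. All 3 probes are lower at each higher dose, and CDCA7 at 162 lies nearest to the background of 116 on the 20 nM array.

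The share of the total decrease reached at 10 nM is given for each member, from 1 array per dose. Between 10 nM and vehicle MYC covered 37.0% of its total log2 difference by the brighter probe and 39.7% by the dimmer one, and CDCA7 covered 46.9%. The CDCA7 share depends on the background step, as its deposited log2 differences from vehicle were -1.24 at 10 nM and -2.29 at 20 nM. At 20 nM against 10 nM the log2 difference was -1.15 and -1.32 for the MYC probes and -1.83 for CDCA7. Both genes were thus more than 2-fold lower at 20 nM than at 10 nM. In the deposited values these ratios were close to each other, 2.07 and 2.19 for the MYC probes and 2.07 for CDCA7. A difference between the genes in the size of this step is therefore not shown.

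Among all named genes detected in a comparison (a detection p-value under 0.01 on 1 of its arrays or more), 16.6% were at least 2-fold lower at 20 nM than with vehicle and 14.7% at least 2-fold higher. At 10 nM against vehicle the shares were 3.24% lower and 6.41% higher, and at 20 nM against 10 nM 4.82% lower and 2.72% higher. Nothing is read from these shares about MYC and CDCA7, which were chosen on the same values. At 20 nM CDCA7 had the lowest log2 difference of all 8346 genes and MYC, at its brighter probe, the 259th lowest. At 10 nM CDCA7 stood 7th and MYC 984th from the lowest of 8233 genes. Ranks depend on the processing: across 6 settings CDCA7 held places 1 to 11 at 20 nM and 3 to 10 at 10 nM, and MYC places 68 to 303 at 20 nM and 329 to 993 at 10 nM. Over all 16112 detected probes at 20 nM, named or not, the CDCA7 probe was the 2nd lowest, and the MYC probes were 366th and 152nd. Of all those probes 12.8% were lower by 2-fold or more and 12.3% higher. The same shares of all detected probes were 2.77% lower and 4.98% higher at 10 nM against vehicle, and 3.59% lower and 2.63% higher at 20 nM against 10 nM. At 10 nM the CDCA7 probe was 16th lowest of 15756, and the MYC probes were 1689th and 801st.

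**Figure D2:**
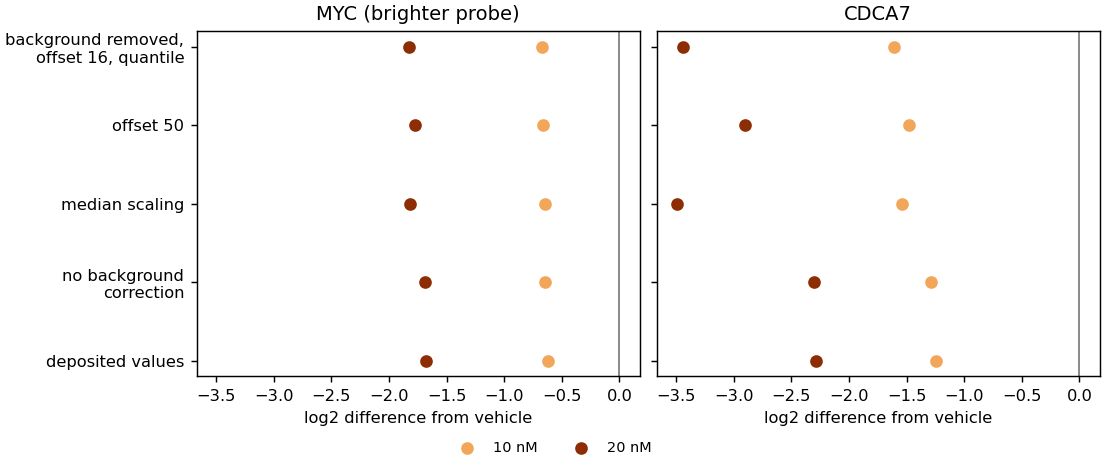
Log2 difference from vehicle of MYC (left, brighter probe) and CDCA7 (right) at 10 nM and 20 nM under 5 ways of processing, named at the left. MYC at 20 nM stays between -1.83 and -1.68, whereas CDCA7 at 20 nM lies at -3.44 with the background removed and at -2.29 in the deposited values.

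By the distance between pairs of log2 differences from vehicle at 10 nM and 20 nM, the gene nearest to MYC among 7170 candidates detected on all 3 arrays was UBB, a ubiquitin gene, at a distance of 0.05. UBB read 15856 with vehicle, 10097 at 10 nM and 4688 at 20 nM. Next were SHMT1, which encodes a serine hydroxymethyltransferase of one-carbon metabolism (0.06), the splicing factor gene TRA2A (0.07), the protocadherin gene PCDHB2 (0.07) and the glycosyltransferase gene B4GAT1 (0.07). SHMT1 is also in the list of classic MYC targets below, and its dimmer probes were not detected at 20 nM. Copies of ubiquitin genes are alike in sequence, so the source of the UBB signal is uncertain.

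For CDCA7 the nearest genes were less close: MSTO1, a gene of mitochondrial shape, lay at 0.21, the arginine methyltransferase gene PRMT6 at 0.22 and the DNA primase gene PRIM1 at 0.23. TIGD5, derived from a transposase, lay at 0.23 and EAF2, an androgen-responsive elongation factor gene, at 0.37. MSTO1 has a near-identical pseudogene copy, so its signal is uncertain too. PRMT6 read 1561 with vehicle, 651 at 10 nM and 247 at 20 nM. The others were dimmer at 20 nM: MSTO1 read 143, EAF2 144, PRIM1 158 and TIGD5 184. Like CDCA7 at 162, these are near the fitted mean background of 116, so their 20 nM differences rest on the background step. MYC and CDCA7 themselves lay 1.87 apart, a distance that also rests on the background step. In the deposited values their pairs were nearer to each other, -0.62 and -1.68 for MYC and -1.24 and -2.29 for CDCA7. Each likeness rests on 3 arrays and on a vehicle array that both doses share, and says nothing of shared control.

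MYC binds E-box DNA as a partner of MAX, and the MXD, MNT and MGA proteins compete with it for MAX. Of 16 genes in this network 11 had a named probe, and all 11 were detected. At 20 nM 3 were higher by 2-fold or more, 2 lower by as much, and 6 between these limits, with a median log2 difference of -0.15 against -0.10 over all detected genes. These are 27.3% higher and 18.2% lower, against 14.7% and 16.6% of all detected genes. Without background correction 0 of the 11 were past 2-fold in either direction, beside 552 higher and 544 lower of all 8346 detected genes. With genes detected on 1 array set at their bound, 3 were higher and 0 lower at 20 nM. At 10 nM 1 was higher and 0 were lower, with a median of 0.31 against -0.04 over all detected genes. Across the settings tried the 20 nM median ran from -0.21 to -0.09.

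The 3 higher members all encode proteins that compete with MYC for MAX. So do the MXD family genes MXI1, MXD3 and MXD4, whose brightest probes lay below vehicle at 20 nM. MXD1, an antagonist that goes with differentiation, read 145 with vehicle, 224 at 10 nM and 285 at 20 nM, a 4.07-fold higher signal at 20 nM. MNT, a repressor present in most cells, read 264, 422 and 487 in the same order and was 2.40-fold higher. MGA, which also carries a T-box, read 176, 198 and 249 and was just past 2-fold higher. The readings of MXD1, MNT and MGA were all highest at 20 nM and lowest with vehicle, but these folds rest on the background step. Without it MXD1 was 1.99-fold, MNT 1.88-fold and MGA 1.44-fold higher at 20 nM.

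The lower members at 20 nM were MXI1 (log2 -1.32) and MXD3 (-1.03), but neither was detected at 20 nM. With their 20 nM value set at the lowest value of a detected probe, they were at least 1.37-fold and 1.68-fold lower. The other MXI1 probe had a log2 difference of 0.67, from readings that missed the detection threshold on every array. MAX itself gave opposite answers. Its brighter probe read 166 with vehicle, 139 at 10 nM and 147 at 20 nM, a log2 difference of -0.42 at 20 nM. Its other probe, not detected with vehicle, read 119, 146 and 180, with a difference of 1.76, so no direction is given for MAX. ZBTB17, the MIZ1 gene through which MYC represses promoters, had a log2 difference of 0.90 at 20 nM. MYCBP2 (0.16), MLX (-0.15), MXD4 (-0.25) and the cofactor gene WDR5 (-0.34) lay near vehicle. MYCN, MYCL, MLXIP, MLXIPL and MYCBP had no named probe and were not analysed here.

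Genes whose products control the stability of MYC protein were mostly within 2-fold of vehicle, with FBXW7 standing out. FBXW7 encodes the F-box protein that directs phosphorylated MYC to the proteasome. Its brighter probe read 219 with vehicle, 451 at 10 nM and 931 at 20 nM. Its other probe read 132, 164 and 289 and was not detected with vehicle. The signal was thus highest at 20 nM by both probes, 2.91-fold above vehicle at 10 nM and 6.91-fold above it at 20 nM by the brighter one. The dimmer probe gave log2 differences of 0.89 and 2.49. These are transcript readings, and MYC protein was not measured here.

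In all, 11 of 18 turnover genes had a named probe and were detected, of which 1 was higher by 2-fold or more at 20 nM, 1 lower by as much, and 9 between these limits. These are 9.09% in each direction, against 14.7% higher and 16.6% lower over all detected genes. Their median was -0.40 against -0.10 over all detected genes. The lower one was CIP2A, whose product shields MYC from the phosphatase PP2A, with readings of 218 with vehicle, 174 at 10 nM and 142 at 20 nM. Its log2 difference from vehicle was -0.68 at 10 nM and -1.42 at 20 nM, or 2.68-fold lower, but 1.52-fold lower at 20 nM without background correction. FBXW7 was 4.24-fold higher at 20 nM without that step. SKP2 (-0.97), a ligase gene of the cell cycle, STUB1 (-0.85), FBXO28 (-0.68), AURKA (-0.40) and TRIM32 (-0.38) lay below vehicle at 20 nM by less than 2-fold. HUWE1 stood at -0.61 but was not detected at 20 nM. PPP2R5A (0.28), GSK3B (0.57), the kinase gene that marks MYC for FBXW7, and the deubiquitinase gene USP22 (0.78) lay above it.

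**Figure D3:**
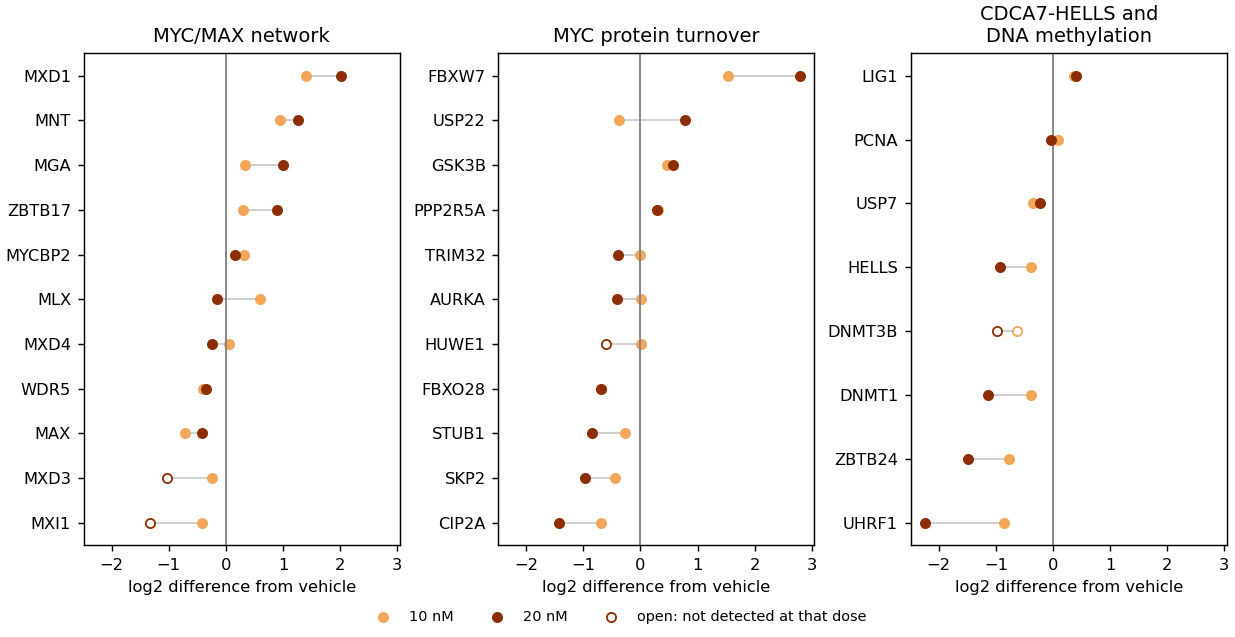
Log2 difference from vehicle at 10 nM and 20 nM for each detected gene of the MYC/MAX network, of MYC protein turnover, and of the CDCA7-HELLS and DNA methylation list, by the brightest named probe. Open circles mark values from a dose at which the probe was not detected. FBXW7 at 2.79 is the highest value and UHRF1 at -2.24 the lowest at 20 nM.

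Of 29 genes that act on MYC transcription or on MYC messenger RNA, 18 had a named probe and were detected in both comparisons with vehicle. At 20 nM 1 was higher by 2-fold or more, 2 lower by as much, and 15 between these limits, with a median of 0.33 against -0.10 over all detected genes. These are 5.56% higher and 11.1% lower, both below the 14.7% and 16.6% of all detected genes. At 10 nM 0 were past 2-fold in either direction. Without background correction 1 was higher and 1 lower at 20 nM, beside 552 and 544 of all 8346 detected genes. With genes detected on 1 array set at their bound, 1 was higher and 1 lower at 20 nM. The lowest were IGF2BP3, an RNA-binding protein gene (-1.73, not detected at 20 nM and at least 1.84-fold lower), HNRNPD, the AUF1 gene whose product promotes decay of AU-rich messages (-1.07), PVT1 (-0.79) and FOXM1 (-0.72). The highest were CNBP, whose product binds the MYC promoter (1.04), the elongation cyclin gene CCNT1 (0.82), TIAL1 (0.72) and the bromodomain gene BRD2 (0.68). TIAL1 probes disagreed, with a range of -0.31 to 1.16.

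Most genes that are commonly used as MYC targets lay below vehicle at both doses. The hallmark V2 list of MYC targets holds many nucleolar and ribosome assembly genes beside genes of other functions. In it 46 of 57 genes other than MYC were named and detected. At 20 nM 26 of these 46 were lower by 2-fold or more, 0 higher by as much, and 20 between these limits, a share of 56.5% lower against 16.6% over all detected genes. Their median log2 difference was -1.07 against -0.10 over all detected genes, and 44 of 46 lay below 0. At 10 nM 6 were at least 2-fold lower and 0 higher, where 3.24% of all detected genes were lower, with a median of -0.67 against -0.04. At 20 nM against 10 nM 8 were lower and 0 higher, 17.4% against 4.82%, with a median of -0.47 against -0.03. Without background correction 14 of the 46 were at least 2-fold lower at 20 nM, as were 544 of all 8346 detected genes.

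The 4 lowest at 20 nM were the replicative helicase gene MCM4 (-2.42, or 5.35-fold lower), the ribosome assembly genes MRTO4 (-2.32) and PPAN (-2.17), and the arginine methyltransferase gene PRMT3 (-2.04). MCM4 read 829 with vehicle, 420.5 at 10 nM and 234 at 20 nM, and PRMT3 read 1028, 620.4 and 323. Both stepped down with dose as MYC did. MRTO4 and PPAN both read 144 at 20 nM, near the fitted mean background of 116. Without background correction they stood at -1.18 and -1.09. In that setting the 4 lowest were MCM4 (-1.83, or 3.55-fold lower), PRMT3 (-1.66), IMP4 (-1.62) and NOP16 (-1.58). The 4 highest were RRP12, a ribosome export gene (0.68), TBRG4 (0.12), the mitochondrial transcription gene TFB2M (-0.11) and the centriole kinase gene PLK4 (-0.17). RRP12 read 334, 329.8 and 468.

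A separate list of 38 classic MYC targets gave a weaker picture. Of these, 33 were named and detected, with 10 lower by 2-fold or more at 20 nM, 1 higher by as much, and 22 between these limits, which is 30.3% lower against 16.6% over all detected genes. In the deposited values 6 were lower and 1 higher at 20 nM, beside 539 lower and 558 higher of all 8346 detected genes. The median was -0.49 at 20 nM and -0.39 at 10 nM, against -0.10 and -0.04 over all detected genes. At 10 nM 2 were lower and 0 higher, which is 6.06% lower against 3.24% over all detected genes. The lowest at 20 nM were IMPDH2 of guanine nucleotide synthesis (-1.88), the ribosome assembly gene RRS1 (-1.86), SHMT1 (-1.84) and FBL, the fibrillarin gene (-1.56). ODC1, the polyamine synthesis gene and a textbook MYC target, read 4129.9 with vehicle, 2062 at 10 nM and 2092 at 20 nM. The reading at 20 nM was no lower than that at 10 nM. The highest were ID2 (1.19), NME2 (0.93), the cap-binding protein gene EIF4E (0.55) and CTPS1 (0.39). CDCA7L, the close relative of CDCA7, had no named probe and was not analysed here.

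Genes described as repressed by MYC lay above vehicle in most cases. Of 17 in the list 11 were named and detected, and at 20 nM 7 were higher by 2-fold or more, 2 lower by as much, and 2 between these limits, 63.6% higher against 14.7% over all detected genes. At 10 nM 6 were higher and 0 lower, with 6.41% higher over all detected genes. The medians were 1.25 at 10 nM and 1.82 at 20 nM, but 0.63 and 1.31 with genes detected on 1 array set at their bound. Without background correction 5 were higher and 0 lower by 2-fold at 20 nM, with a median of 0.63. Over all 8346 detected genes 552 were higher and 544 lower in that setting, with a median of -0.07. The list overlaps with p53 targets, and GADD45A, CDKN1A and DDIT3 respond to other factors too.

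GADD45A (4.06), KLF6 (2.47), the p27 cell cycle inhibitor gene CDKN1B (2.44) and DDIT3 (2.04) were the members with large differences at 20 nM and a detected vehicle reading. CDKN1B read 443 with vehicle, 1219 at 10 nM and 1987 at 20 nM. CDKN1A read 2905, 20838 and 20842, near the top of the signal range at both doses, so no fold is given for it. THBS1 and CDKN2B were not detected with vehicle and were at least 2.48-fold and 2.10-fold higher at 20 nM. ITGB1 (0.17) and NDRG1 (0.07) lay near vehicle. The lower members were CEBPA (-1.26) and NDRG2 (-1.06), and the other NDRG2 probe gave -0.15. Without background correction CEBPA was 1.87-fold and NDRG2 1.59-fold lower at 20 nM.

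**Figure D4:**
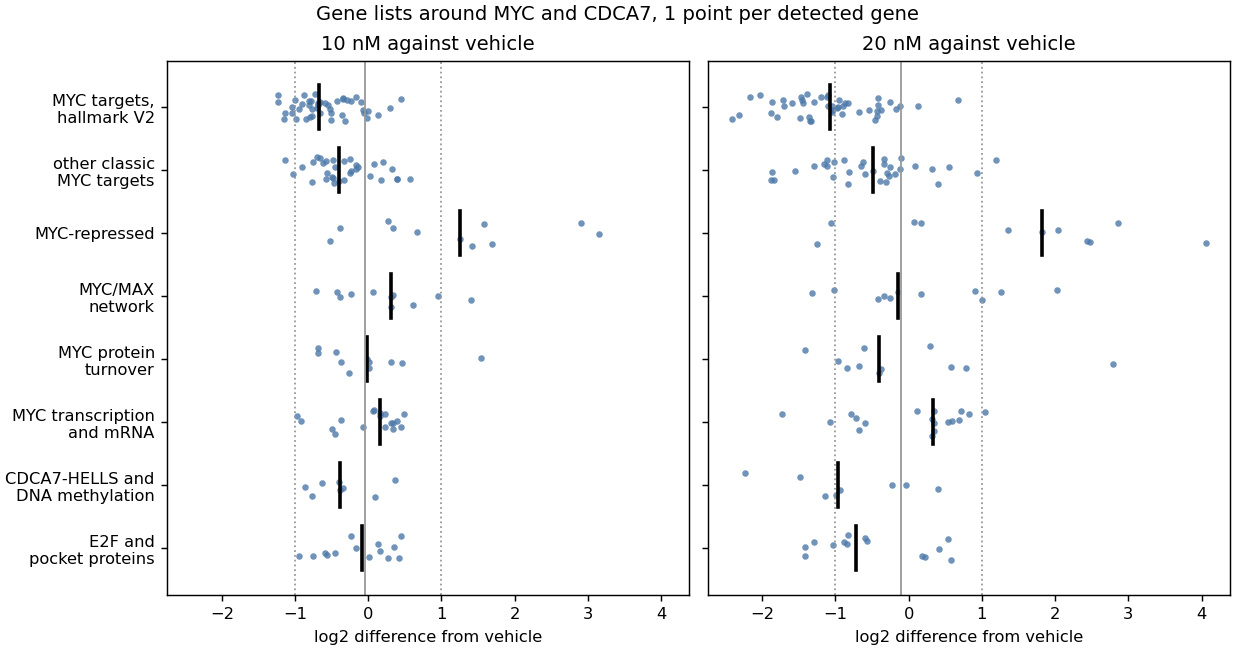
Log2 difference from vehicle at 10 nM (left) and 20 nM (right), with 1 point for each detected gene of 8 lists. Black bars are list medians, the grey line is the median of all detected genes and dotted lines mark 2-fold. The hallmark V2 targets have medians of -0.67 and -1.07, and the MYC-repressed genes of 1.25 and 1.82.

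CDCA7 works with HELLS, and the other genes of the ICF syndrome are HELLS, ZBTB24 and DNMT3B. Of 14 genes of this complex and of DNA methylation maintenance 8 were named, and all 8 were detected with vehicle. At 20 nM 3 were lower by 2-fold or more, 0 higher by as much, and 5 between these limits, with a median of -0.96 against -0.10 over all detected genes. The share lower was 37.5%, against 16.6% of all detected genes. At 10 nM 0 were past 2-fold, with a median of -0.39. The 20 nM median was -0.60 with a bound for the gene not detected at 20 nM and -0.37 without background correction. In that last setting 2 of the 8 were lower by 2-fold, as were 544 of all 8346 detected genes.

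UHRF1, which encodes the reader of hemimethylated DNA that recruits DNMT1, read 805 with vehicle, 501 at 10 nM and 247 at 20 nM, a 4.71-fold lower signal at 20 nM. ZBTB24, a zinc finger factor gene that activates CDCA7 transcription, read 299.7, 217 and 168 and was 2.79-fold lower, but 1.75-fold lower without background correction. DNMT1, the maintenance methyltransferase gene, read 2494, 1957 and 1198 and was 2.21-fold lower. All 3 stepped down with dose, and from vehicle to 20 nM each fell by less than CDCA7. Without background correction UHRF1 was 3.26-fold and DNMT1 2.11-fold lower at 20 nM. From 10 nM to 20 nM the deposited readings of UHRF1 (501 to 247) and CDCA7 (335 to 162) fell by similar proportions. HELLS had a log2 difference of -0.39 at 10 nM and -0.93 at 20 nM by its brighter probe, and -0.37 and -0.53 by the other, so the remodeller gene stayed within 2-fold of vehicle. The brighter DNMT3B probe was detected with vehicle only and was at least 1.19-fold lower at 20 nM. USP7 (-0.23) and LIG1 (0.40) lay near vehicle. PCNA probes disagreed: the brighter one gave -0.04 at 20 nM and the dimmer one -1.35.

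The other genes with a CDCA symbol are unrelated in sequence, apart from CDCA7L, and share only a peak of expression in dividing cells. Of 6 such genes 4 were named and detected, and 1 was at least 2-fold lower at 20 nM, a share of 25%, against 16.6% of all detected genes. Without background correction 0 of the 4 were, beside 544 of all 8346 detected genes. The log2 differences at 20 nM were -1.22 for CDCA2, -0.94 for CDCA3, -0.61 for CDCA4 and -0.29 for CDCA5. Each lay nearer to vehicle than CDCA7 at -3.44.

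Among E2F factors, pocket proteins and G1 cyclins, 14 of 20 genes were named and detected. At 20 nM 4 were lower by 2-fold or more, 0 higher by as much, and 10 between these limits, with a median of -0.72 against -0.10 over all detected genes. The share lower was 28.6%, against 16.6% of all detected genes. Without background correction 2 of the 14 were lower by 2-fold, as were 544 of all 8346 detected genes. At 10 nM 0 were past 2-fold with a median of -0.08. The lowest were the cyclin genes CCNE1 (-1.42), CCND3 (-1.41) and CCND1 (-1.29) and the pocket protein gene RBL2 (-1.03). The highest were E2F3 (0.58), E2F1 (0.53), E2F7 (0.41) and CDK2 (0.23). E2F1 read 186 with vehicle, 216 at 10 nM and 220.3 at 20 nM.

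The letters searched in the CDCA7 window were also counted before other genes. Of 39 detected hallmark V2 genes with a window in the RefSeq table, 13, or 33.3%, held CACGTG and 5, or 12.8%, held TTTNNCGC. Over 7108 named genes with a window the shares were 11.9% for CACGTG and 11.9% for TTTNNCGC. Within the hallmark V2 list, CACGTG stood before 8 of 22 genes that were at least 2-fold lower at 20 nM and before 5 of 17 that were not. Windows were found for 4 of the 5 genes nearest to CDCA7, and 0 of these 4 held either set of letters.

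Genes beside MYC and CDCA7 on their chromosomes did not share one direction. Of the 5 nearest named genes on each side of MYC, all 10 were detected, and at 20 nM 1 was lower by 2-fold or more, 2 higher by as much, and 7 between these limits, with a median of 0.39 against -0.10 over all detected genes, of which 16.6% were lower and 14.7% higher. The lower one was SQLE (-2.13), of sterol synthesis, and the higher ones were the pseudokinase gene TRIB1 (2.98) and LRATD2 (1.31), the nearest named gene on the lower-coordinate side. On the other side the nearest was PVT1, a long noncoding RNA gene often gained together with MYC. PVT1 read 201 with vehicle, 153 at 10 nM and 156 at 20 nM, log2 differences of -0.92 and -0.79.

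Around CDCA7 9 of 10 neighbours were detected in these comparisons, with 1 lower by 2-fold or more at 20 nM, 1 higher by as much, and 7 between these limits, and a median of -0.24, beside the same shares of all detected genes. DLX1 was the lower one at -1.98, not detected at 20 nM, and the higher was the nearest on the higher-coordinate side, the transcription factor gene SP3 (1.26). The nearest on the other side, MAP3K20, stood at -0.44.

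In the series as a whole 14612 to 14735 probes were detected on each array. All named genes come from the second, filtered table, and those within 10% of vehicle at both doses are missing from the counts. At 10 nM against vehicle the 528 named genes at least 2-fold higher and 267 lower became 194 and 44 without background correction. At 20 nM against 10 nM the 223 higher and 395 lower became 168 and 510 under median scaling. Of 14 luminal prostate markers, 11 were named and all were detected with vehicle. Their readings summed to 10751 with vehicle, 13499 at 10 nM and 11942 at 20 nM. TMPRSS2 alone read 1492, 3668 and 5800 in the same order. At 20 nM 5 were lower by 2-fold, namely KLK4, STEAP2, SPDEF, SLC45A3 and KLK2, the last not detected at 20 nM. TMPRSS2 and FOLH1 were the 2 higher by 2-fold. These are 45.5% lower and 18.2% higher, against 16.6% and 14.7% of all detected genes. The median of the 11 was -0.74 against -0.10 over all detected genes. Of 6 basal markers 0 were named. The readings of 3 named leukocyte markers of 8 summed to 697 with vehicle, 965 at 10 nM and 1269 at 20 nM, and those of 3 named stromal markers of 8 to 1831, 2734 and 2474. The part of these marker differences in the MYC and CDCA7 values was not tested.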

How the data were processed

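Total RNA of LNCaP cells was isolated with a column kit and read on Illumina bead arrays, per the labels' protocols. The deposited table gives an intensity and a detection p-value for each of 47323 probes, not normalized per the file headers, made with BeadStudio 3.0 per the submitters' processing notes. No source used here says whether background was subtracted. A second deposited table holds intensities of 13753 of these probes, equal to the first in all 41259 values. All but 1 of its probes had detection p-values under 0.05 on 2 or more arrays and a difference from vehicle of 10% or more at either dose. Only its probes could be named: 10952 had 1 gene, 2 several and 2799 none, which leaves 36371 probes of the array unnamed here. Of the gene identifiers 10947 were found in RefSeq, which gave the current symbols.

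A normexp background, estimated through the detection p-values, was removed (limma 3.58.1, R 4.3.3), an offset of 16 was added, and quantile normalization across the 3 arrays, with every probe included, preceded log2. Fold changes on this offset scale understate dim genes. The brightest named probe, by mean signal, stood for a gene. It counted as detected if its detection p-value was under 0.01 on either array compared. Where only 1 array detected it, counts, shares, medians and ranks kept its own normalized value. For folds given as "at least" and values given with a bound, the dim value was changed. It was set at the higher of its own value and the lowest value of a detected probe on that array. With such bounds 1105 named genes were at least 2-fold higher and 1241 lower at 20 nM against vehicle, instead of 1224 and 1386. A difference of 2-fold, or 1 on the log2 scale, was the size threshold, with no test behind it. The steps were tested on simulated data. Precision is limited by having 1 array per group.

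The members, 13 gene lists and processing alternatives were chosen with earlier results of these data known. The rule for named genes took every detected member of a list with at most 12 detected members, otherwise the 4 lowest and 4 highest at 20 nM, the 5 genes nearest in pattern and the 5 nearest named genes on each side. ODC1 and genes named as not analysed fall outside it and were chosen after their values were seen. Marker lists are given as sums of readings, and for the luminal list the members past 2-fold at 20 nM are named too.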

Additional observations from a re-analysis of the deposited data

How the results depend on the processing

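MYC kept its direction in all 3 comparisons under every alternative tried, with 20 nM against vehicle between -2.00 and -1.68 on the log2 scale, and no value moved by more than the spread between probes. CDCA7 also kept its direction but moved by more than that spread. At 10 nM against vehicle it was -1.24 in the deposited values and in the value table, and -1.29 without background correction. At 20 nM against vehicle it was -2.29 in both of those, -2.30 without background correction and -2.90 with an offset of 50. At 20 nM against 10 nM it was -1.05, -1.01 and -1.42 in the same order. Without background correction the median of the CDCA7-HELLS list was -0.37 at 20 nM against vehicle and -0.24 against 10 nM, and at 20 nM against vehicle it was -0.38 in the deposited values and the value table.

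Hallmark V2 targets at least 2-fold lower at 10 nM numbered 1 without background correction and 0 in the deposited values and the value table. At 20 nM they numbered 14 in all 3 of these, and at 20 nM against 10 nM 2 in all 3 and 4 with the offset of 50. Counts of all genes at least 2-fold higher and lower at 10 nM were 208 and 32 in the deposited values, 207 and 31 in the value table, 194 and 44 without background correction, and 318 and 95 with the offset of 50. At 20 nM they were 558 and 539, 556 and 539, and 552 and 544 in the first 3 of these, and 893 were lower with the offset of 50. At 20 nM against 10 nM they were 35 and 83 in the deposited values and the value table, 39 and 76 without background correction, and 90 and 168 with the offset of 50. Over all detected probes, an alternative chosen after seeing the data, 436 were lower at 10 nM, 1979 higher at 20 nM and 414 higher at 20 nM against 10 nM. Background left in a signal adds a similar amount on both arrays compared, and so by construction draws differences of dim probes toward 0.

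Of 162 values under alternatives, 111 stayed within the spread between probes, or within 1.5 times for counts, and 51 did not. This tally does not measure robustness. Averaging probes could not move CDCA7, which has 1 named probe, and the value table repeats the deposited intensities. No paired analysis was possible because each group has 1 array. Leaving out an array was not possible for the same reason.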
